A study of Homo sapiens with 8 samples.

Results

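MHC class I antigen presentation was described in human embryonic stem cells (hESCs) through 9 genes of the pathway, HLA-B, HLA-C, HLA-E, B2M, PSMB9, TAP1, TAP2, TAPBP and NLRC5, taken by symbol from the 60675 genes of the deposited tables. All 9 were found and all 9 passed the filter on low counts that kept 19499 genes. The cells were H9 hESCs (WA09), 1 line derived from a blastocyst, kept without feeder cells in mTeSR1 medium on Matrigel. They were sampled at passages in the 40s (P1), the 100s (P2), the 200s (P3) and the 300s (P4), with 2 RNA-seq libraries per passage group, and no treatment or genetic change was applied to any group. P3 and P4 hESCs carry a copy number gain according to the study, which groups them against P1 and P2 hESCs, so the gain and the longer time in culture cannot be told apart here.

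Class I molecules carry short peptides from inside the cell to its surface, where T cells and natural killer cells read them. Each molecule is a heavy chain (HLA-B, HLA-C, HLA-E) held by the invariant light chain beta-2 microglobulin (B2M). Proteasomes, including the interferon-inducible form that contains PSMB9, cut proteins to peptides, the TAP1 and TAP2 transporter pumps them into the endoplasmic reticulum, and tapasin (TAPBP) helps to load them onto the new molecule. NLRC5 is the transactivator that works at class I promoters, and interferons raise most of the pathway in many cell types. Pluripotent stem cells are known for low class I levels at their surface, which RNA does not measure.

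The 8 libraries held 26874899 to 38095600 expected counts, and mitochondrial genes took 5.89 to 18.5% of them. It was over 15% in 3 libraries, P1 replicate 2, P3 replicate 1 and P4 replicate 1. The pluripotent cell markers were present in every library, with a summed level of 3130 to 4712 TPM (transcripts scaled to the same total in each library, a level per transcript length) in P1 and P2 and of 3337 to 5007 TPM in P3 and P4, and none of the 10 was called different. The labels do not say whether the 2 libraries of a group came from separate cultures, so the p-values measure the spread between these libraries, which may be technical.

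The promoters below set B2M, the only member called different between the early (P1 and P2) and late (P3 and P4) groups, beside HLA-B, HLA-C and TAP1, which did not pass the test. Each sequence is the 250 bases before the RefSeq start site (GRCh38.p14), read 5′ to 3′ on the strand of the gene. B2M lies at chr15:44711267-44711516 (plus strand), HLA-B at chr6:31357180-31357429, HLA-C at chr6:31272093-31272342 and TAP1 at chr6:32853705-32853954 (all minus strand). Capitals mark matches on either strand to the motifs searched, which were an interferon-stimulated response element-like GAAANNGAA, the X2-like TGACGC of the class I enhanceosome, the Y box ATTGG, an interferon gamma activated site-like TTCNNNGAA and a kappa B-like GGGANTTCC.
B2M: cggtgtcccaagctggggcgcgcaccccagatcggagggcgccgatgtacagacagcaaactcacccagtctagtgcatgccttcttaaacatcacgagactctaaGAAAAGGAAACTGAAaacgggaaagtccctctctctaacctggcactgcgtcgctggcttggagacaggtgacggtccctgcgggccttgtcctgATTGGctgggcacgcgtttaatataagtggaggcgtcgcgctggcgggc
HLA-B: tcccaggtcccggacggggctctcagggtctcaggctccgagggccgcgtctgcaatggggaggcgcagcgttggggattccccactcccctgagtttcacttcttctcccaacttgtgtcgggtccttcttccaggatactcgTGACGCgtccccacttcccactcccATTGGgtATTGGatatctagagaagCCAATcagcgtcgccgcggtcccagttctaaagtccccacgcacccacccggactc
HLA-C: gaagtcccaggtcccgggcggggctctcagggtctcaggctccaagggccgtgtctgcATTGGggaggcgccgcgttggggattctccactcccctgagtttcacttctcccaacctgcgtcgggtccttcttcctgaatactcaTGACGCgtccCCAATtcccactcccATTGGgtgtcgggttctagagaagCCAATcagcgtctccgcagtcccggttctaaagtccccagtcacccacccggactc
TAP1: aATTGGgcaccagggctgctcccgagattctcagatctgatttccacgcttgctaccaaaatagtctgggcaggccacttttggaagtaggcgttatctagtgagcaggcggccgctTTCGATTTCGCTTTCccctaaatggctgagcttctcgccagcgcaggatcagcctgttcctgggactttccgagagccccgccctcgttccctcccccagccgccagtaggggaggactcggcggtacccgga

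RefSeq windows were found for 7 of the 9 members, 8 windows in all because TAP1 has 2, and each was searched from 250 bases before to 50 bases after the start. The GAAANNGAA motif was matched in the windows of B2M, TAP1, TAP2 and TAPBP, and in 8.11% of all 35116 windows. In B2M the matches began 144 and 138 bases before the start site and overlapped each other, and in TAP1 they began 133 and 127 bases before it. HLA-B, HLA-C and TAP2 held TGACGC, 106, 105 and 35 bases before their starts, a motif found in 9.14% of all windows. ATTGG or its complement stood in the windows of B2M, HLA-B, HLA-C, PSMB9 and TAP1 and in 34.6% of all windows. The windows of PSMB9 and TAP1 overlap on opposite strands, and their matches are the same bases read from either side. TTCNNNGAA was matched in the second TAP1 window alone (7.66% of all windows), and GGGANTTCC in TAPBP alone (1.85%). Only these exact letters were searched, so a window without a match may still hold a variant form of a site. A match in letters is a description, not a binding site, and the part of these motifs in the levels of the members was not tested.

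In P3 and P4 hESCs, B2M was 2.66-fold higher than in P1 and P2 hESCs, and the other 8 members did not pass the test in either direction. B2M was thus 1 of 9 members called, in a comparison that called 2.2% of the 19499 genes (1.06% higher and 1.14% lower). A gene was called when its log2 fold change was over 1 in size and its p under the quasi-likelihood model of edgeR, adjusted by Benjamini-Hochberg across the genes tested, was under 0.01. The median log2 fold change of the 9 members was 0.00, with 5 values above 0 and 4 below.

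**Figure D1:**
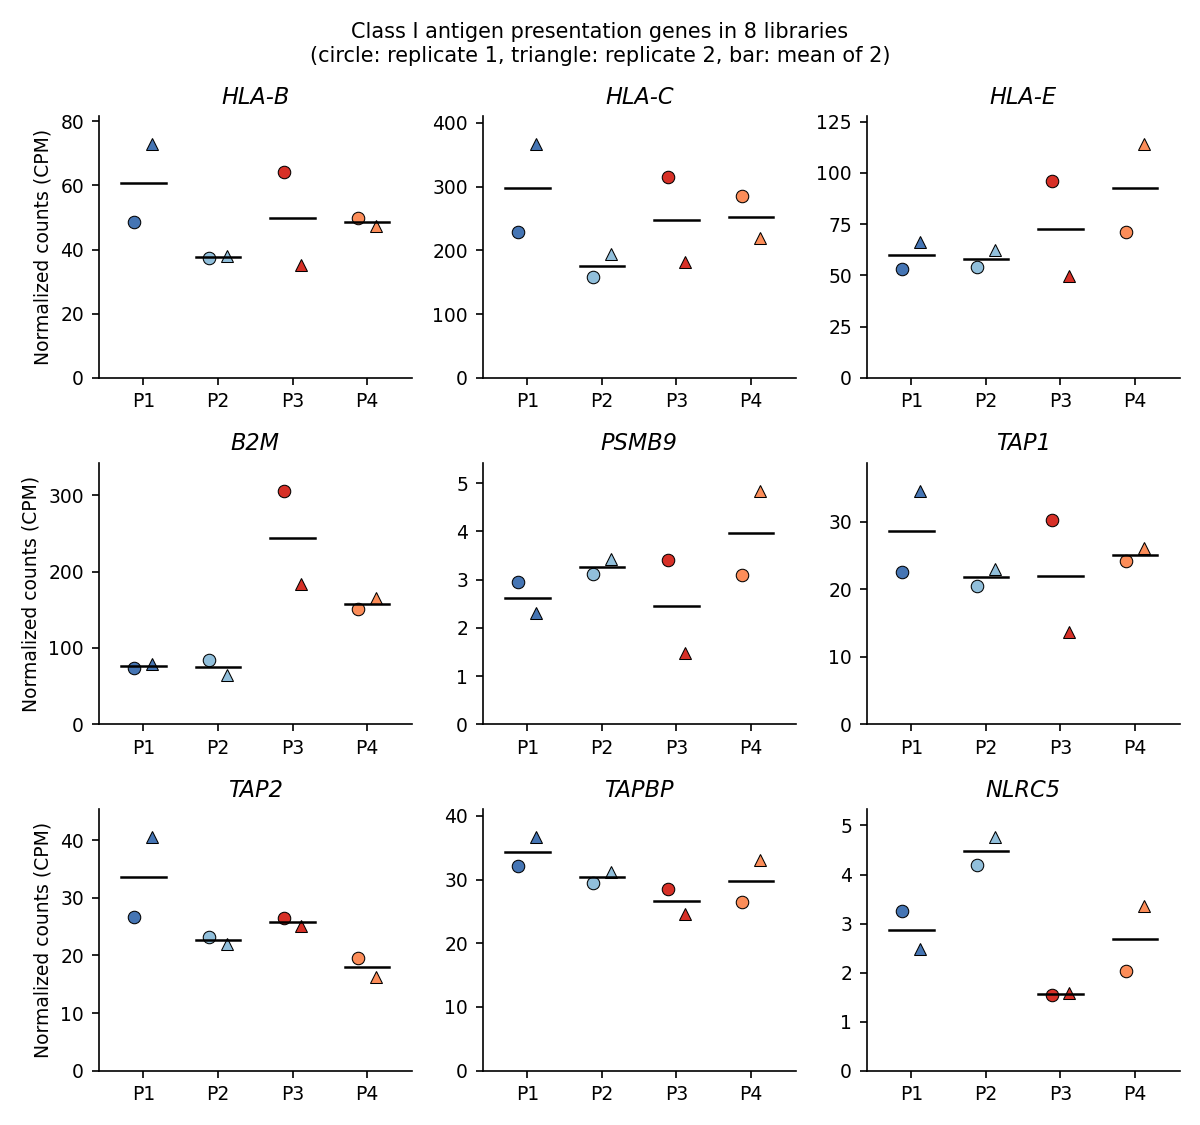
Counts normalized to library size (CPM, y axis from 0) of the 9 genes in the 2 libraries of P1, P2, P3 and P4 hESCs; circles are replicate 1, triangles replicate 2 and bars the mean of 2. The 4 P3 and P4 libraries sit between 151 and 306 CPM for B2M, above the 64.8 to 84.3 CPM of the P1 and P2 libraries, and the 2 sets of libraries overlap on this scale for each of the other 8 genes.

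The heavy chains are encoded in the MHC on chromosome 6. HLA-C, which presents peptides and binds the KIR receptors of natural killer cells, was the most abundant of the 3, with a mean of 216 TPM over the 8 libraries. Its normalized counts were 228 and 366 CPM in P1, 158 and 194 CPM in P2, 314 and 182 CPM in P3 and 285 and 219 CPM in P4. The early and late libraries overlapped, and the 2 libraries of P1 and of P3 differed more from each other than the means of any pair of passage groups did. The log2 fold change of HLA-C between P3 and P4 and P1 and P2 was 0.08 (SE 0.26, adjusted p = 0.88 by edgeR).

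HLA-B, the other classical heavy chain measured, had 48.5 and 72.8 CPM in P1, 37.4 and 37.9 in P2, 64.1 and 35.3 in P3 and 49.9 and 47.3 in P4. Its values followed the same pattern as HLA-C, highest in P1 replicate 2 and P3 replicate 1, and its log2 fold change was 0.00 (SE 0.24, adjusted p = 1.00 by edgeR). In all 4 passage groups the library with the higher HLA-B and HLA-C normalized counts was the one with the higher mitochondrial share, which was 18.5 against 9.84% in P1, 6.72 against 6.55% in P2, 18.4 against 7.53% in P3 and 17.2 against 5.89% in P4. On the TPM scale the same held for HLA-C in all 4 groups but for HLA-B in P1 and P3 only. With the mitochondrial share as a covariate neither gene was called. Between P2 and P1 the log2 fold changes were -0.69 for HLA-B (SE 0.27) and -0.76 for HLA-C (SE 0.29), with adjusted p of 0.51 and 0.50 by edgeR. With the mitochondrial share as a covariate these 2 values were -0.30 and -0.28. HLA genes resemble each other, so reads may have been split between them, and HLA-B and HLA-C share 35 exonic bases in the GENCODE 29 annotation.

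HLA-E presents leader peptides of other class I heavy chains to the NKG2A receptor of natural killer cells. It had 53.2 and 66.4 CPM in P1, 53.9 and 62.4 in P2, 96.0 and 49.8 in P3 and 71.2 and 114 in P4. The late values reached both above and below the early ones, with 3 of 4 late libraries above every early library and P3 replicate 2 below them. Its log2 fold change was 0.49 (SE 0.22, adjusted p = 0.20 by edgeR), the second highest of the 9 members, and its exact two-sided permutation p was 0.20.

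B2M is the light chain of every class I molecule and is encoded outside the MHC, at chr15:44711487-44718877 (GRCh38, plus strand). It had 74.0 and 79.3 CPM in P1, 84.3 and 64.8 in P2, 306 and 183 in P3 and 151 and 165 in P4. All 4 late libraries were above all 4 early ones, which 8.38% of the tested genes also showed. The log2 fold change was 1.41 (SE 0.22, adjusted p = 0.0030 by edgeR), and the exact two-sided permutation test gave p = 0.029, the smallest that 4 against 4 libraries allow. Both tests treated each library as independent, although the libraries came in pairs from the same passage group. B2M was 151st of the 207 called rises by fold change but 13th by its level in CPM in the late libraries.

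By passage group, B2M was called higher in P3 than in P1, with a log2 fold change of 1.67 (SE 0.25, adjusted p = 0.0015 by edgeR), where 3.93% of genes were called, and than in P2, with 1.71 (SE 0.25, adjusted p = 0.0013), where 3.42% were called. In P4 the log2 fold change against P1 was 1.04 (SE 0.24), and its adjusted p of 0.027 by edgeR missed the 0.01 threshold, in a comparison that called 2.11% of genes; DESeq2 called it, with an adjusted p of 0.0011. P4 and P3 were not told apart for B2M, at a log2 fold change of -0.63 (SE 0.24, adjusted p = 0.18 by edgeR) where 0.815% of genes were called. P2 and P1 differed by -0.04 (SE 0.24, adjusted p = 0.98 by edgeR), and that comparison called 0% of genes, with 1782 at an unadjusted p under 0.05 by edgeR and 36 called by DESeq2. These comparisons share libraries.

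B2M in the late libraries varied with 1 library more than with the others. P3 replicate 1, which had a mitochondrial share of 18.4%, held 306 CPM, and without it the log2 fold change was 1.14 (adjusted p = 0.0017 by edgeR). Without all 3 libraries over 15% the log2 fold change was 1.22 and the adjusted p of 0.020 was no longer under 0.01, in a fit that called 61 genes in all against 429 with every library. Leaving out any 1 of the 4 P1 and P2 libraries also took the adjusted p past the threshold, to between 0.010 and 0.014, with log2 fold changes of 1.35 to 1.47.

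**Figure D2:**
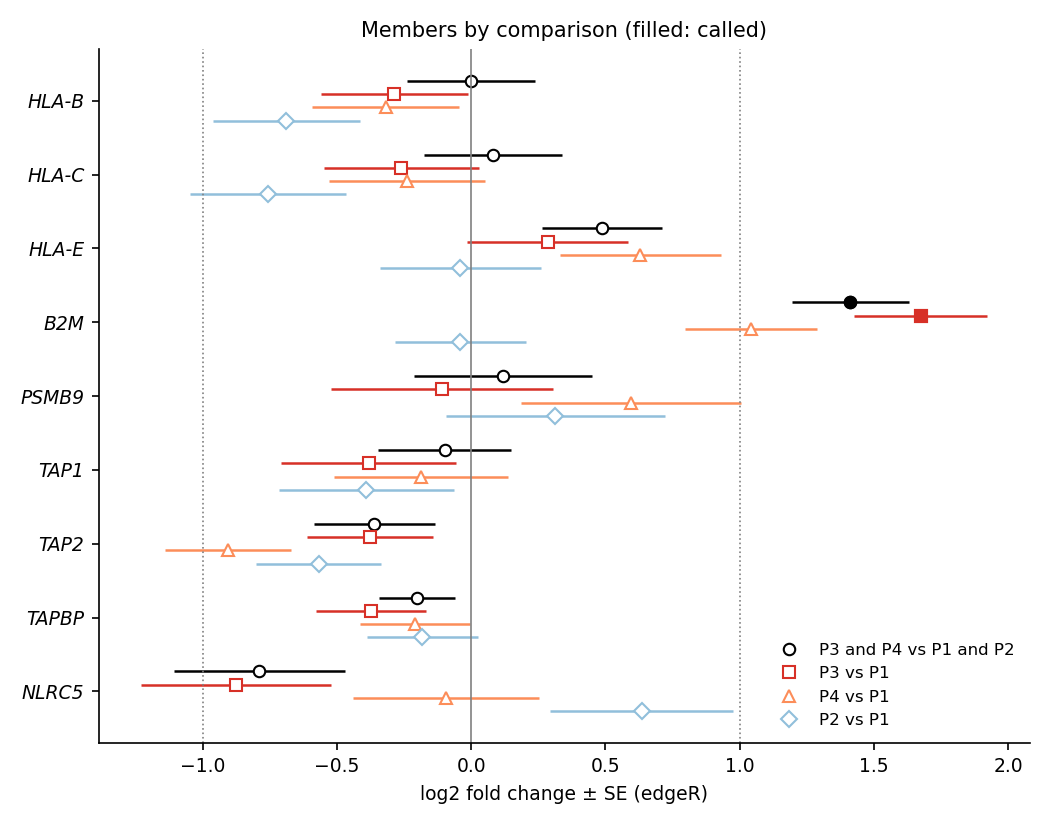
Log2 fold change (x axis) of the 9 genes (y axis) in 4 comparisons, with bars of 1 standard error from edgeR; filled symbols were called and dotted lines mark a log2 fold change of 1 in size. B2M is filled in P3 and P4 against P1 and P2 (1.41) and in P3 against P1 (1.67) but open in P4 against P1 (1.04), and all symbols of the other 8 genes are open.

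On the TPM scale, which sets genes side by side per transcript length, B2M was 188 and 164 TPM in P1, 224 and 163 in P2, 564 and 474 in P3 and 318 and 436 in P4. The 3 heavy chains together held 233 to 398 TPM in the early and 243 to 340 TPM in the late libraries, and HLA-C made up 65.5 to 75.6% of the sum. The ratio of B2M to these heavy chains was 0.619 and 0.411 in P1, 0.958 and 0.602 in P2, 1.88 and 1.95 in P3 and 1.02 and 1.28 in P4. Every late ratio was above every early one, although P2 replicate 1 and P4 replicate 1 were close, and B2M transcripts outnumbered those of the 3 heavy chains in the late libraries only. The ratio covers HLA-B, HLA-C and HLA-E alone. It is taken within a library, and its 2 values lay closer together in P3 than in P1, P2 or P4.

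**Figure D3:**
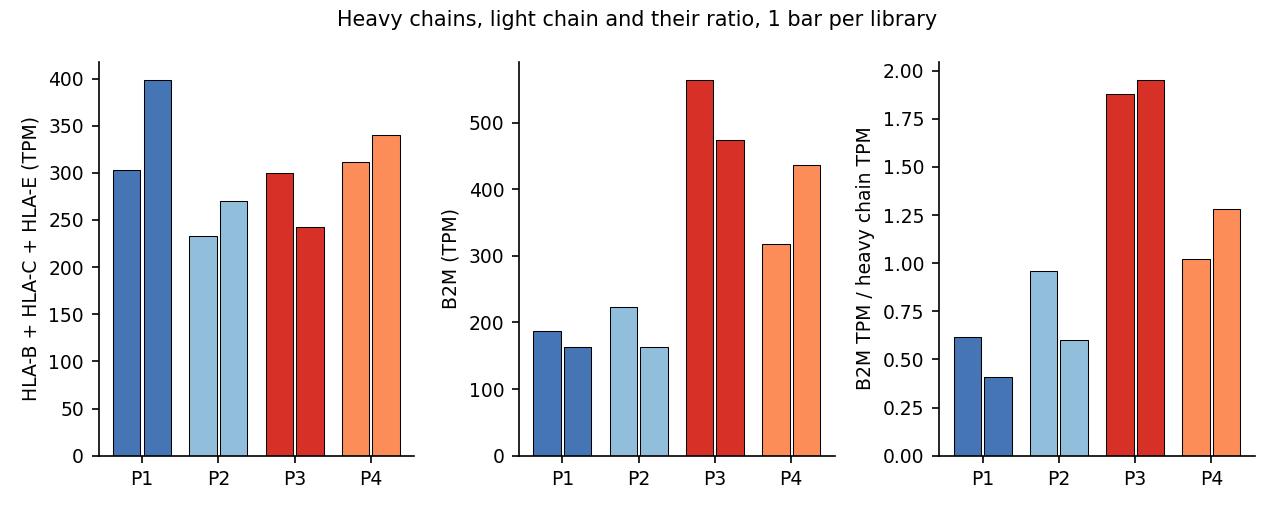
Summed TPM of HLA-B, HLA-C and HLA-E (left), TPM of B2M (middle) and their ratio (right), 1 bar per library in P1 to P4 hESCs, all axes from 0. The heavy chain sum spans 233 to 398 TPM with no order between early and late libraries, while the ratio is 0.411 to 0.958 in P1 and P2 and 1.02 to 1.95 in P3 and P4.

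PSMB9, a catalytic subunit of the immunoproteasome, was scarce, with expected counts of 53 to 144 per library. It had 2.95 and 2.30 CPM in P1, 3.12 and 3.42 in P2, 3.41 and 1.48 in P3 and 3.09 and 4.84 in P4. The lowest and the highest library were both late, and the log2 fold change was 0.12 (SE 0.33, adjusted p = 0.86 by edgeR). PSMB9 shares 174 exonic bases with PSMB8-AS1 on its own strand and 139 with PSMB8 on the other.

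TAP1 had 22.6 and 34.6 CPM in P1, 20.5 and 23.1 in P2, 30.3 and 13.6 in P3 and 24.2 and 26.1 in P4. As for HLA-B and HLA-C, P1 replicate 2 and P3 replicate 1 were the highest, and the log2 fold change was -0.10 (SE 0.25, adjusted p = 0.84 by edgeR). Its partner TAP2 had 26.6 and 40.5 CPM in P1, 23.2 and 22.0 in P2, 26.5 and 25.2 in P3 and 19.6 and 16.2 in P4. In CPM both P4 libraries were below all other libraries for TAP2, and the share of all genes with that order was not counted. In TPM P4 replicate 2, at 8.23 TPM, was above both P2 libraries (6.75 and 7.93 TPM) and P3 replicate 1 (6.16 TPM). Against P1 the log2 fold change of TAP2 in P4 was -0.91 (SE 0.24, adjusted p = 0.042 by edgeR) and was not called. That adjusted p was under 0.05, as it was for 5.94% of all genes. Over both late groups TAP2 gave -0.36 (SE 0.23, adjusted p = 0.34 by edgeR). TAP1 and TAP2 share their scale of abundance, at 6.38 to 13.5 TPM for TAP1 and 5.77 to 13.5 TPM for TAP2.

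TAPBP, the tapasin gene, was the steadiest of the 9, with 32.1 and 36.7 CPM in P1, 29.4 and 31.3 in P2, 28.5 and 24.6 in P3 and 26.5 and 33.0 in P4. Of the late libraries 3 were below every early one and P4 replicate 2 was not, and the log2 fold change was -0.20 (SE 0.14, adjusted p = 0.40 by edgeR).

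NLRC5 was the least abundant member, with expected counts of 49 to 172 and a level of 0.79 to 3.10 TPM. It had 3.27 and 2.49 CPM in P1, 4.19 and 4.76 in P2, 1.55 and 1.59 in P3 and 2.03 and 3.36 in P4. On this scale P2 was the highest group and P3 the lowest, and 3 of 4 late libraries were below every early library, while P4 replicate 2 was above both P1 libraries. The TPM values gave another order, with 1.67 and 1.96 TPM in P1, 2.16 and 3.10 in P2, 0.79 and 1.2 in P3 and 1.31 and 1.35 in P4. In TPM all 4 late libraries were thus below all 4 early ones, P4 replicate 2 included, as was the case for 9.13% of the tested genes. The effective length that RSEM gave NLRC5 differed between libraries, from 1341 to 3128 bases, and was longest in P4 replicate 2, and its part in the difference between the scales was not tested. The log2 fold change over the late groups was -0.79 (SE 0.32, adjusted p = 0.15 by edgeR; exact permutation p = 0.086), opposite in sign to that of B2M. Between P3 and P2 it was -1.51 (SE 0.35, adjusted p = 0.019 by edgeR), under 0.05, as 11.7% of all genes were, but not called; DESeq2 called it, with an adjusted p of 0.0033.

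The other genes of the pathway were given by lists. Of 6 further class I molecules none was called (median log2 fold change -0.26), and the most abundant were FCGRT, the neonatal Fc receptor, which also pairs with B2M, at 12.2 to 16.0 TPM early and 9.09 to 23.6 TPM late, and HLA-F, at 7.47 to 10.9 TPM early and up to 11.3 TPM late. Of the 8 stress ligands of the NKG2D receptor 4 were tested and none was called, including MICA (log2 fold change 0.10) and MICB (-0.02). ULBP1, which was picked out after its values were seen, had 0.28 to 1.03 TPM early and 0.05 to 0.20 TPM late, with a log2 fold change of -2.57 (SE 0.49) and an adjusted p of 0.0101 by edgeR, just past the threshold, and it was called lower in P3 than in P1 and than in P2.

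None of 6 immunoproteasome and activator genes was called (median 0.17), PSME2 and PSME3 of the proteasome activators being the most abundant with log2 fold changes of 0.02 and 0.28. The 14 subunits of the constitutive proteasome core, the enzyme that cuts most peptides in cells without interferon, had log2 fold changes above 0 in 14 of 14 cases. Their median was 0.42, against 0.0059 over all 19499 tested genes, and none reached the fold required for a call. All 14 stayed above 0 under every alternative run, with medians of 0.25 without the 3 libraries over 15% mitochondrial counts to 0.52 without P4 replicate 2. By passage group their median was 0.66 in P3 against P1 and 0.28 in P4 against P1. In P4 against P3 all 14 were below 0, with a median of -0.33. PSMB1, a core beta subunit, had 211 to 298 TPM early and 327 to 438 TPM late (log2 fold change 0.67, SE 0.16, adjusted p = 0.030 by edgeR), and PSMB4 336 to 407 and 368 to 448 TPM (0.24, adjusted p = 0.27). Over all 19499 genes 7.54% had an adjusted p under 0.05, and of the 14 subunits PSMB1 and PSMA1 (0.57, adjusted p = 0.044), the latter named after its value was seen, did.

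Of 9 tested genes for peptide loading and trimming none was called (median 0.10). CALR, the chaperone calreticulin, had 501 to 840 TPM early and 462 to 642 TPM late, and PDIA3, the disulfide isomerase ERp57 of the loading complex, 347 to 586 and 379 to 523 TPM. None of 15 transcription factors that act at class I promoters was called either (median 0.09), the most abundant being NFYB, a subunit of the Y box binding factor, and RFXANK, a subunit of the X box binding factor, with log2 fold changes of 0.27 and 0.31. The class II pathway, which presents peptides of antigens taken up by immune cells, had 0 of 12 genes called (7 above 0, median 0.17). The most abundant were CD74, the invariant chain, at 32.9 to 40.2 TPM early and 34.2 to 57.1 TPM late, and HLA-DPB1, at 18.8 to 35.7 and 31.1 to 46.0 TPM.

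Of 24 tested interferon-stimulated genes 11 were called higher and 0 lower, where 1.06% of all 19499 genes were called higher and 1.14% lower. Their median log2 fold change was 1.34, which was the same with the genes at 0 in every early library set at their bound. ISG15, a ubiquitin-like modifier, had 26.8 to 44.9 TPM early and 82.1 to 304 TPM late (log2 fold change 2.43, SE 0.32, adjusted p = 0.0012 by edgeR). IFIT1, which binds foreign RNA caps, rose from 1.28 to 3.18 TPM early to 46.0 to 105 TPM late (4.99, SE 0.31), and its relatives IFIT2 and IFIT3 reached 13.8 to 42.3 and 12.6 to 33.9 TPM from at most 0.14 and 0.87 TPM. The cytoplasmic RNA sensors RIGI (1.60, SE 0.19) and IFIH1 (2.62, SE 0.25) rose as well. Without the 3 libraries over 15% mitochondrial counts, 4 of the 24 genes were called and the median was 1.31. That fit called 61 genes in all, against 429 with every library.

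IFI44 and OASL had no count in any early library and were at least 36.7-fold and 32.8-fold higher late, taken against a floor of 3 counts in a library. OAS1, OAS2 and SAMD9 were also called, from at most 2, 3 and 2 counts in an early library to 1.35 to 3.67, 1.34 to 3.41 and 0.17 to 0.25 TPM late. The most abundant genes of the list, IFITM1 and IFITM3, membrane proteins that limit virus entry, had log2 fold changes of 0.26 and -0.24 (adjusted p = 0.46 and 0.34 by edgeR).

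Of 9 tested genes of the interferon gamma pathway, CXCL10 was called higher and SOCS3 lower (median 0.14), where 2.2% of all genes were called. CXCL10, a chemokine, had no count in any early library and 1.2 to 1.77 TPM late, at least 13.3-fold higher. SOCS3, an inhibitor of cytokine receptor signalling, fell from 21.6 to 32.1 TPM to 5.79 to 17.4 TPM (log2 fold change -1.35, SE 0.24, adjusted p = 0.0072 by edgeR), a call that was lost without any 1 of 7 libraries. IFNGR1, a chain of the interferon gamma receptor, and IDO1, an interferon-inducible enzyme of tryptophan breakdown, had log2 fold changes of -0.11 and -0.28 (adjusted p = 0.75 and 0.47).

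**Figure D4:**
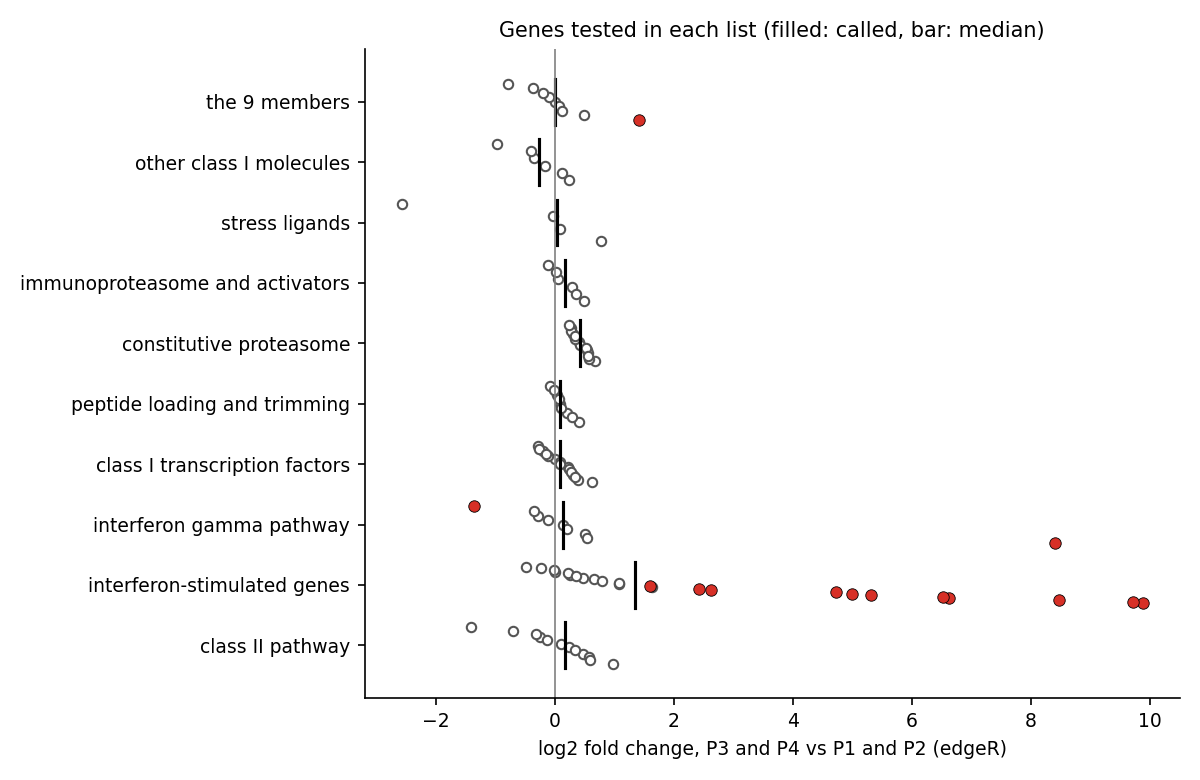
Log2 fold change of P3 and P4 against P1 and P2 hESCs (x axis, edgeR) for every tested gene of each list (y axis); filled points were called and bars are medians, and the fitted values of CXCL10, IFI44 and OASL rest on early libraries with no count. The called points are B2M among the 9 members, SOCS3 and CXCL10 in the interferon gamma pathway and 11 interferon-stimulated genes, while the 14 constitutive proteasome genes are all open and all to the right of 0.

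No tested marker of other cells was called in P3 and P4 against P1 and P2. The trophoblast markers summed to 13.0 to 21.3 TPM early and 8.20 to 12.1 TPM late (KRT7 and GATA2 leading, and ELF5, VGLL1 and XAGE2 at 0 in all libraries). Every late trophoblast sum was below every early one, an order that 9.13% of single tested genes showed in TPM. The mesoderm and endoderm markers summed to 7.60 to 11.9 and 3.83 to 13.2 TPM (AFP and FOXA2 leading). The neural markers summed to 125 to 167 and 123 to 167 TPM, mostly TUBB3, with MAP2 next. Among the blood cell markers, CD68 was at most 0.95 TPM and PTPRC, the pan-leukocyte marker, at most 0.18 TPM. The fibroblast markers summed to 462 to 632 and 494 to 779 TPM, mostly THY1 and COL1A1, while COL3A1, DCN, LUM and FAP were at or near 0. None of the 10 trophoblast, 11 mesoderm and endoderm, 8 neural, 9 fibroblast and 10 blood cell markers was called among the 4, 8, 5, 5 and 4 that were tested. The median log2 fold change was -0.86 for trophoblast (3 of 4 below 0) and -1.08 for mesoderm and endoderm markers (7 of 8 below 0). It was 0.28 for neural (4 of 5 above 0) and -0.23 for fibroblast markers (3 of 5 below 0). In P3 alone, FOXA2 was called higher and EOMES lower than in P1, and HAND1, too, lower than in P2, with levels of at most 3.63, 1.52 and 1.85 TPM in any library, and their part in the B2M difference was not tested. Fewer cells of a type and less RNA per cell cannot be told apart in such bulk samples.

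The 9 members did not share a profile over the 8 libraries. Each was centred on its mean log2(CPM + 1) and the 9 were averaged. The correlation of a member with this average was 0.91 for TAP1, 0.87 for HLA-B, 0.83 for HLA-E and 0.79 for HLA-C. It was 0.54 for PSMB9, 0.52 for TAPBP, 0.35 for B2M, 0.14 for TAP2 and -0.21 for NLRC5. The average holds the member itself, which raises its correlation. The genes outside the members with the most similar profile were NARF (r = 0.97), TMEM86A (0.96), PDIA5 (0.96), SPINT1 (0.95) and SPINT2 (0.95), out of 15174 genes. These correlations describe 8 libraries that share their differences in depth and mitochondrial share, and the highest of many values is high by choice.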

How the data were processed

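RNA from 4 passage groups of H9 hESCs (P1 to P4, 2 libraries each) was sequenced with a stranded mRNA kit. The submitters' processing notes name FastQC, Trim Galore, STAR 2.7.3a, RSEM 1.3.3 and the GRCh38 (hg38) build; the annotation release and the strand setting of the counting are not given in the sources used here. The authors deposited for each library and gene an RSEM expected count, which is not normalized, and a TPM value with an effective length.

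Expected counts were rounded and tested in R 4.3.3 with edgeR 4.0.16 (TMM, filterByExpr by passage group, quasi-likelihood test), in a 2-group model for P3 and P4 against P1 and P2 and a 4-group model for single groups, with Benjamini-Hochberg adjustment over 19499 genes. SE is the log2 fold change divided by the square root of F. CPM used TMM factors. On simulated counts with 200 genes changed by a log2 fold change of 2 in size, edgeR recovered 88% for the 2-group and 64% for the P3 against P1 comparison. No member changed that much with all libraries, and recovery of smaller changes was not simulated. Single members were also compared by the exact permutation test of log2(CPM + 1), which shuffled single libraries and not passage groups. Levels were compared between libraries in CPM and between genes in TPM. A count of 3 in a library equals 0.0787 to 0.112 CPM, and floors cover counting error only. Library pairs of a group differed by a mean chi-square per gene of 19.3 to 151, beyond sampling noise.

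Gene positions are from GENCODE 29, promoters from RefSeq (GRCh38.p14). All members were named, with every list gene called in P3 and P4 against P1 and P2 and the 2 genes of highest mean TPM in each list; 1 blood cell marker and the sum that holds it are not reported here. The members and lists were chosen with earlier results of these data known. Alternatives were DESeq2 1.42.0 and its size factors, limma 3.58.1 on log2(TPM + 1) and log2(TPM + 0.1), no filter, a replicate block, mitochondrial genes or share, and leaving out libraries.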

Additional observations from a re-analysis of the deposited data

How the results depend on the processing

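The rise of B2M in P3 and P4 against P1 and P2 kept its direction under every alternative, with log2 fold changes of 1.22 to 1.43, and kept its call under 9 of 10. The exception, chosen after seeing the data, left out the 3 libraries over 15% mitochondrial counts and called 0 members in that comparison. It leaves P1, P3 and P4 with 1 library each, which the 4-group model for single groups assumed to vary like P2. In that model the log2 fold changes included 1.13 for B2M and 1.08 for HLA-E in P4 against P1. They also included -1.48 for NLRC5 in P3 against P2, and 1.17 for HLA-E and 1.69 for PSMB9 in P4 against P3. Leaving out 1 library at a time gave 0 to 1 member called in P3 and P4 against P1 and P2 (0 without any 1 of the P1 or P2 libraries), 0 to 1 in P3 against P1 (0 without P1 replicate 1 or 2), 0 to 1 in P4 against P1 (1 without P3 replicate 1 or 2) and 0 to 2 in P3 against P2 (0 without P2 replicate 2 and 2, with NLRC5, without P4 replicate 1). B2M then ranged from 1.14 to 1.53, with adjusted p of 0.0017 to 0.014 by edgeR. DESeq2 and no filter on low counts each called 1 member in P4 against P1 (B2M) and 2 in P3 against P2 (B2M and NLRC5), an adjusted p under 0.05 with no fold minimum gave 2 in both comparisons, and log2(TPM + 1) in limma gave 0 in P3 against P2. Over all genes, the P3 and P4 against P1 and P2 comparison called 429 with edgeR, 955 with DESeq2, 738 without a filter, 919 in the 4-group model, 242 and 282 with limma on log2(TPM + 1) and log2(TPM + 0.1) and 61 without the 3 libraries, and the cause was not tested.

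The replicate numbers did not pair the libraries, with correlations of same-numbered deviations of -0.09 to 0.14. With the replicate block, B2M gave 1.40 (adjusted p = 0.0052 by edgeR), the number of members called was the same in all 6 comparisons, all genes called fell from 429 to 343, and HLA-B turned to -0.0059.

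Members that were not called changed sign around 0. In P3 and P4 against P1 and P2, log2(TPM + 1) and log2(TPM + 0.1) in limma gave HLA-B -0.13 and -0.13, HLA-C -0.0077 and -0.0076 and PSMB9 -0.040 and -0.057, the mitochondrial share as a covariate gave HLA-B -0.068 and HLA-C -0.0027, and leaving out the 3 libraries gave HLA-B -0.0071 and PSMB9 -0.019. In P4 against P3, HLA-B was 0.15 with both limma settings, 0.10 with the covariate and 0.40 without the 3 libraries. In P4 against P1, TAP1 was 0.017 with the covariate and 0.19 without the 3 libraries, which also gave TAPBP 0.018, NLRC5 0.021 and, in P3 against P1, HLA-E -0.093. B2M in P2 against P1 was 0.12 with both limma settings, 0.13 with the covariate and 0.0073 without the 3 libraries. Leaving out 1 library at a time gave, in P3 and P4 against P1 and P2, HLA-B -0.15 to 0.25, HLA-C -0.069 to 0.37, TAP1 -0.24 to 0.094 and PSMB9 -0.15 to 0.36. In P2 against P1 it gave B2M -0.24 to 0.14. In P3 against P1 it gave HLA-B -0.78 to 0.087, HLA-C -0.70 to 0.12, HLA-E -0.26 to 0.69, TAP1 -1.07 to 0.091 and PSMB9 -0.82 to 0.38. In P4 against P1 it gave HLA-B -0.59 to 0.0017, HLA-C -0.54 to 0.14, TAP1 -0.47 to 0.15 and NLRC5 -0.51 to 0.22. In P4 against P3 it gave HLA-B -0.41 to 0.46, HLA-C -0.32 to 0.46, HLA-E -0.058 to 0.89, TAP1 -0.28 to 0.88 and TAPBP -0.0092 to 0.31. Depth limits NLRC5 and PSMB9 most, at under 200 expected counts in every library.

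Of the lists, the interferon-stimulated genes called were 11 to 12 when 1 library was left out and 4 without the 3 libraries. The interferon gamma pathway lost SOCS3 under the replicate block and with limma, and both of its calls without the 3 libraries. One stress ligand, ULBP1, was called by DESeq2, without a filter, in the 4-group model, with the size factors of DESeq2 and without mitochondrial genes.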

Other observations

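TAP2, like NLRC5, gave different orders on the 2 scales of the files. The effective length that RSEM estimated for TAP2 ranged from 2358 to 4446 bases between libraries, shortest in P3 replicate 2, which had the highest TAP2 level of 13.5 TPM with 903 expected counts, while P1 replicate 2 had 1286 expected counts and 11.5 TPM. TAP2 shares 2064 of its 6390 exonic bases with AL669918.1 on the same strand. The effective length of B2M ranged from 474 to 514 bases.

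The neighbours of the members were counted after the member values were seen. Of 28 other tested genes within 1 Mb of B2M (chr15:43711487-45718877), 0 were called higher and 1 lower in the late libraries (median log2 fold change -0.07). Of 121 between HLA-E and TAPBP (chr6:30489467-33314387), 3 were higher and 1 lower (median -0.02), and of 43 within 1 Mb of NLRC5 none was called by edgeR (median -0.18). Over all 19499 tested genes, 1.06% were called higher and 1.14% lower in the same comparison. The genes whose profile over the 8 libraries was most like that of B2M alone, also chosen after its values were seen, were WDR44 (r = 0.99), CFP (0.98), ZNF415 (0.98), CD177 (0.98) and HTRA2 (0.98), given as a description.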
